A study of Triticum aestivum with 18 samples.

Results

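The genes described here are PRK, FBP, Pgk-1 and GAPN of bread wheat, which act on the sugar phosphates made when leaves fix carbon. Their members on the array were all probe sets whose annotated gene symbol, or a synonym of that gene in the gene table, was one of these 4 names. The rule found 4 genes of the 771 annotated ones, with 5 probe sets among the 61179 of the array that are not controls. PRK (gene ID 543283), Pgk-1 (543496) and GAPN (543435) had 1 probe set each, and FBP (543276) had 2, a bright one and a dim one. All 5 passed the filter on low signal. The gene identifier of GAPN had no match in the gene table, so its name rests on the platform annotation alone.

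RNA came from leaf tissue of the wheat lines TXGBE273, labelled resistant, and TXGBE281, labelled susceptible, and the pest was the greenbug, a cereal aphid. Plants of both lines grew in a greenhouse to the 3-leaf stage and were infested with greenbug biotype E. Leaves of each line were sampled 24 h and 48 h after infestation, and at 0 h, which the labels call control, with 3 arrays in each of the 6 groups. Uninfested plants at 24 h and 48 h were not analysed here, so infestation, plant age and time of sampling cannot be told apart. The sources used here do not say whether replicates were separate plants, so the p-values refer to the spread among these arrays, which may be technical. In bulk leaf RNA, fewer cells of a type and less RNA per cell also cannot be told apart.

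In the Calvin cycle, Rubisco joins carbon dioxide to ribulose bisphosphate, the products are reduced to triose phosphates, and most of these are used to rebuild the acceptor. Phosphoglycerate kinase, the product of Pgk-1, phosphorylates 3-phosphoglycerate in the reduction steps, and forms of the enzyme also serve glycolysis; the files do not say which form the probe set reads. Fructose-1,6-bisphosphatase (FBP, with the synonym pre-FBPase in the gene table) and phosphoribulokinase (PRK) act in the rebuilding of the acceptor, and both enzymes are switched on in the light through thioredoxin in chloroplasts. GAPN, the non-phosphorylating glyceraldehyde-3-phosphate dehydrogenase, oxidises triose phosphate in the cytosol and makes NADPH. Wheat is a polyploid, so a probe set can also read related copies of its gene.

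The deposited signals were on 1 scale, with a trimmed mean of 500.1 on every array. The added hybridisation controls were dimmer on infested arrays than at 0 h. Their mean log2 signal was 11.61 at 24 h and 11.79 at 48 h against 12.21 at 0 h in resistant plants, and 11.77 and 11.48 against 12.21 in susceptible plants. The replicate 2 array of the susceptible line at 24 h stood apart. On the first principal component of all tested probe sets, which held 42.4% of the variance, it lay at 32.3, against 75.8 and 82.6 for the other arrays of its group and 29.1 to 44.8 for the resistant arrays at 24 h. On the second, which held 9.0%, it lay at 13.6, apart from the resistant arrays at 24 h, at -59.4 to -53.0. The other arrays of its group were at 34.6 and 42.0 there. Differences that involve the susceptible 24 h group are given with and without this array. Without it the susceptible falls at 24 h were -2.30 for PRK, -2.68 for the bright FBP probe set, -3.09 for Pgk-1 and -3.60 for GAPN, all still called in the fit described next, and -1.41 for the dim FBP probe set, which was not.

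At 24 h and 48 h, PRK, the bright FBP probe set, Pgk-1 and GAPN were all far lower than at 0 h in both lines, and the dim FBP probe set passed no test. Differences were taken on log2(signal + 16) in 1 limma fit over all 46251 tested probe sets, and "called" means a Benjamini-Hochberg adjusted p under 0.05. In resistant plants 4 of the 5 members were called lower at 24 h, where 14.5% of all tested probe sets were called lower, and 4 of 5 at 48 h, where 16.3% were. In susceptible plants 4 of 5 were called lower at 24 h, against 16.3% of all tested probe sets, and 4 of 5 at 48 h, against 19.1%. Members called higher numbered 0 in each of these comparisons, where 17.6% and 17.4% of all tested probe sets in resistant plants and 17.1% and 17.8% in susceptible plants were called higher. The median difference over the members was -2.17 and -1.82 on the log2 scale at 24 h and 48 h in resistant plants, beside medians of -0.02 and -0.06 over all tested probe sets. The corresponding members' medians were -2.47 and -2.34 in susceptible plants, beside -0.07 and -0.08. The 24 h and 48 h comparisons of a line share its 0 h arrays. With the arrays rescaled to the hybridisation controls, the median over all tested probe sets moved to 0.50 and 0.30 in resistant and 0.31 and 0.55 in susceptible plants, and the members' medians were then -1.57, -1.40, -2.03 and -1.61.

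**Figure D1:**
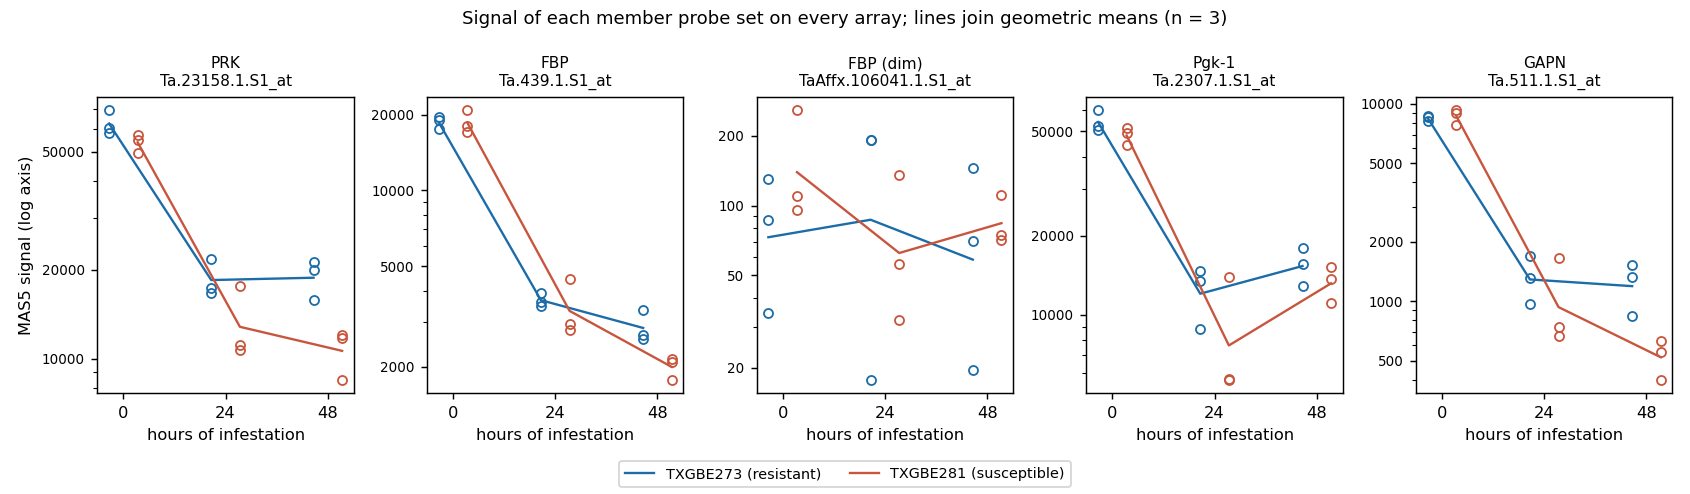
MAS5 signal (log axis) of the 5 member probe sets against hours of infestation, with 1 open circle per array and lines joining the geometric means of the 3 arrays of each group; the lines are offset sideways so that arrays do not cover each other. PRK, the bright FBP probe set, Pgk-1 and GAPN lie far lower on every infested array than on any 0 h array of the same line, while the dim FBP probe set ranges from 17.8 to 257.5 with no order by time.

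PRK makes the acceptor that Rubisco uses. In resistant plants its signal was 58078, 69250 and 60391 at 0 h, 16639, 21767 and 17388 at 24 h, and 15766, 19906 and 21194 at 48 h. Susceptible plants had 57248, 54988 and 49799 at 0 h, 10734, 17687 and 11146 at 24 h, and 12058, 11763 and 8510 at 48 h. Every infested array lay below every 0 h array of its line, as did 20.9% and 22.5% of all tested probe sets at 24 h and 48 h in resistant plants and 22.6% and 25.9% in susceptible plants. The mean signal at 24 h and 48 h was 29.7% and 30.3% of that at 0 h in resistant plants. It was 24.4% and 20.0% in susceptible plants. PRK fell in resistant plants by log2 differences of -1.76 ± 0.17 at 24 h (SE, limma adjusted p = 1e-07) and -1.73 ± 0.17 at 48 h (9.82e-08). The fall in susceptible plants was -2.07 ± 0.17 (8.05e-09) and -2.34 ± 0.17 (8.68e-10), the last being a 5.06-fold lower signal.

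The bright FBP probe set, for the phosphatase that commits fructose bisphosphate to the rebuilding steps, had signals of 17478, 18966 and 19585 at 0 h, 3616, 3915 and 3490 at 24 h, and 2577, 2658 and 3368 at 48 h in resistant plants. Signals of susceptible plants were 20835, 18031 and 17043 at 0 h, 2960, 4437 and 2806 at 24 h, and 2147, 2080 and 1775 at 48 h. Again no infested array reached the lowest 0 h array. Its mean was 19.7% and 15.4% of the 0 h mean at 24 h and 48 h in resistant plants and 18.2% and 10.7% in susceptible plants. FBP fell in resistant plants by log2 differences of -2.34 ± 0.14 at 24 h (SE, limma adjusted p = 2.19e-10) and -2.71 ± 0.14 at 48 h (3.22e-11). Its differences were -2.47 ± 0.14 (7.01e-11) and -3.21 ± 0.14 (1.51e-12) in susceptible plants.

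The other FBP probe set was dim on all 18 arrays and showed no such fall. Its signal at 0 h was 130.1, 86.5 and 34.6 in resistant plants and 257.5, 109.4 and 95.9 in susceptible plants. Infested arrays ranged over 17.8 to 192.2 in resistant and 32.1 to 135.8 in susceptible plants, so they overlapped with 0 h in every comparison. Its differences were 0.32 and -0.20 at 24 h and 48 h in resistant plants and -0.96 and -0.64 in susceptible plants, with limma adjusted p of 0.772, 0.855, 0.301 and 0.497. Their standard error of 0.66 was several times that of the brighter probe set, and the 95% interval at 48 h in susceptible plants ran from -2.02 to 0.74. In resistant plants the interval ran from -1.07 to 1.70 at 24 h and from -1.59 to 1.18 at 48 h. At 24 h in susceptible plants it ran from -2.34 to 0.42. In every comparison the difference of the bright probe set lay below the interval of the dim one. Signals this close to the offset of 16 understate a fall. The part of low signal in the difference between the 2 FBP probe sets was not tested.

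Pgk-1, for phosphoglycerate kinase, had signals of 50681, 60160 and 52176 at 0 h, 8844, 14621 and 13415 at 24 h, and 12814, 17928 and 15648 at 48 h in resistant plants. The susceptible plants had 51554, 49097 and 44190 at 0 h, 5674, 13859 and 5652 at 24 h, and 13630, 15133 and 11057 at 48 h. All infested arrays were below all 0 h arrays, and the susceptible 24 h group held its lowest values, on replicates 1 and 3, beside the much higher replicate 2. Its mean was 22.6% and 28.5% of the 0 h mean at 24 h and 48 h in resistant plants and 17.4% and 27.5% in susceptible plants. Pgk-1 fell in resistant plants by log2 differences of -2.17 ± 0.25 at 24 h (SE, limma adjusted p = 9.06e-07) and -1.82 ± 0.25 at 48 h (7.1e-06). Susceptible plants gave -2.66 ± 0.25 (4.94e-08) and -1.87 ± 0.25 (3.87e-06).

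GAPN, the cytosolic source of NADPH from triose phosphate, had the largest fall of the 4 genes in each comparison on these values. In resistant plants its signals were 8207, 8576 and 8689 at 0 h, 966, 1700 and 1309 at 24 h, and 842, 1324 and 1525 at 48 h. The signals in susceptible plants were 7821, 9310 and 8998 at 0 h, 666, 1655 and 741 at 24 h, and 556, 632 and 401 at 48 h. No infested array came near the 0 h arrays, and the susceptible arrays at 48 h were all below every other array. Its mean was 15.6% and 14.5% of the 0 h mean at 24 h and 48 h in resistant plants and 11.7% and 6.08% in susceptible plants. GAPN fell in resistant plants by log2 differences of -2.70 ± 0.27 at 24 h (SE, limma adjusted p = 1.51e-07) and -2.81 ± 0.27 at 48 h (7e-08). The fall in susceptible plants was -3.19 ± 0.27 (1.19e-08) and -4.02 ± 0.27 (2.83e-10), the last being 16.2-fold lower. Of all tested probe sets, 0.852% had a larger difference in either direction in that comparison.

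**Figure D2:**
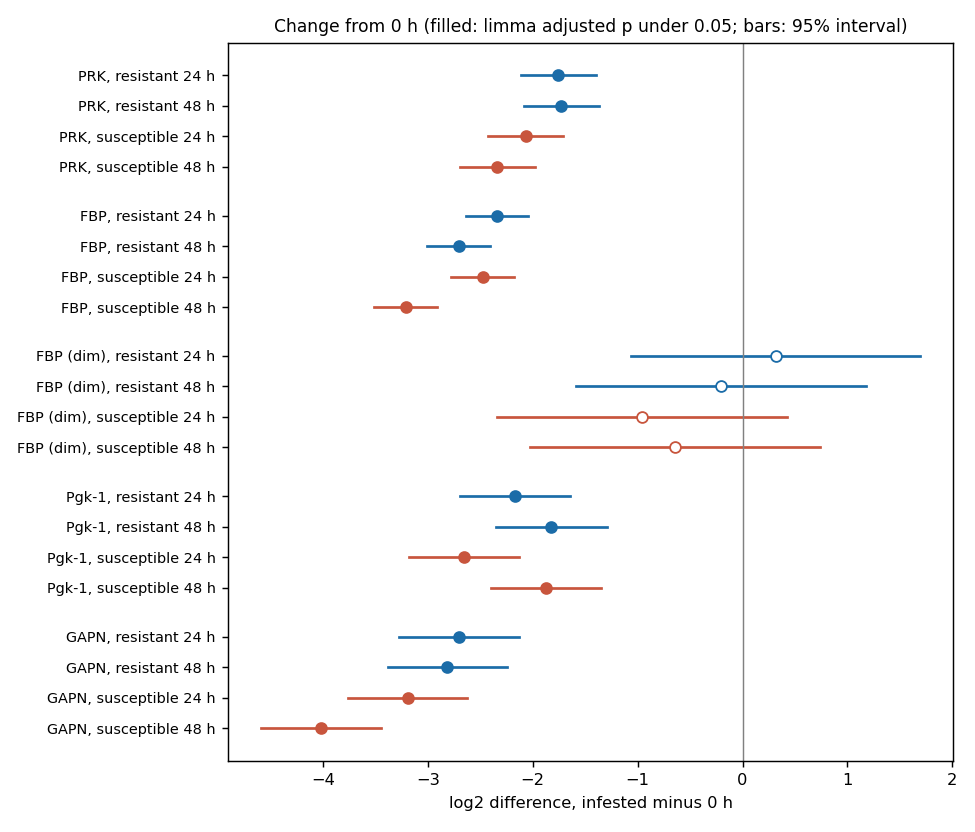
Log2 difference of each member probe set (infested minus 0 h, on log2(signal + 16)) by line and time, resistant line in blue and susceptible line in red, with 95% intervals from limma; filled circles have an adjusted p under 0.05. The 16 values of PRK, the bright FBP probe set, Pgk-1 and GAPN lie between -4.02 and -1.73, and the 4 open circles of the dim FBP probe set have intervals that include 0.

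The 4 genes did not fall equally. For each pair of genes the difference of their log2 signals was taken on each array, and its mean over infested arrays minus that over 0 h arrays was tested by an exact two-sided permutation test within lines, with p-values adjusted over 14 such comparisons. The smallest p these permutations can give is 0.000142. GAPN fell more than PRK by 1.21 on the log2 scale (adjusted p = 0.000283) and more than Pgk-1 by 1.05 (adjusted p = 0.00437). PRK and Pgk-1 differed by 0.16, which passed no test (adjusted p = 0.444).

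For FBP the outcome turned on its dim probe set. With both FBP probe sets averaged, PRK minus FBP was -0.45 (adjusted p = 0.0789), FBP minus Pgk-1 was 0.60 (0.091) and FBP minus GAPN was 1.65 (0.000283) in the same exact permutation tests. PRK minus FBP passed without resistant 48 h replicate 2 (-0.54) or susceptible 0 h replicate 1 (-0.55), and FBP minus Pgk-1 without resistant 48 h replicate 2 (0.73). With only probe sets of mean signal over 1000, a choice made after the data were seen, PRK minus FBP was 0.71 (adjusted p = 0.000248) and FBP minus Pgk-1 was -0.55 (0.0852), both with the sign turned. FBP minus GAPN was then 0.50 (0.00661). On the bright probe sets FBP thus fell more than PRK and less than GAPN, and its difference from Pgk-1 passed no test.

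Between 24 h and 48 h few changes in the members passed a test. In resistant plants 0 of 5 members were called in either direction, where 5.17% of all tested probe sets were. In susceptible plants 1 of 5 was called lower and 0 higher, where 5.32% of all tested probe sets were called lower and 4.82% higher. The member called was FBP, whose 48 h arrays all lay below its 24 h arrays and which fell by 0.73 ± 0.14 on the log2 scale (SE, limma adjusted p = 0.00202). Without the susceptible 24 h replicate 2 array it was -0.53 and still called (adjusted p = 0.0111). On the hybridisation control scale that difference was -0.45 and was not called (adjusted p = 0.188). In resistant plants FBP differed by -0.36 ± 0.14 (adjusted p = 0.17), also with all 48 h arrays below the 24 h arrays. The share of all tested probe sets whose 24 h and 48 h arrays separated was not counted.

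Pgk-1 had values above 0, with differences of 0.35 ± 0.25 (SE, limma adjusted p = 0.547) in resistant and 0.79 ± 0.25 (0.0527) in susceptible plants between 24 h and 48 h. Without the susceptible 24 h replicate 2 array the susceptible value was 1.21 (adjusted p = 0.000279), a called rise, and without replicate 1 or replicate 3 of that group it was 0.57 and not called. On the hybridisation control scale it was 1.07 and called (adjusted p = 0.00617). GAPN differed by -0.11 ± 0.27 (0.905) in resistant and -0.83 ± 0.27 (0.0608) in susceptible plants. In susceptible plants its 48 h arrays were all below its 24 h arrays, a separation also not counted over all tested probe sets. The susceptible difference of GAPN was called without 24 h replicate 1 (-1.07, adjusted p = 0.0227) or replicate 3 (-0.99, 0.0413), while without replicate 2, the array that stood apart, it was -0.42 (0.37). PRK differed by 0.03 ± 0.17 (0.971) and -0.27 ± 0.17 (0.413), and the dim FBP probe set by -0.52 ± 0.66 (0.782) and 0.31 ± 0.66 (0.864). Without that array the susceptible values were -0.04 for PRK and 0.77 for the dim FBP probe set, neither called.

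The 6 gene pairs were also set side by side over this interval, with the bright FBP probe set. This was done because Pgk-1 had been seen to lie on the other side of 0, so the p-values below describe these arrays and are no independent support for a difference between the genes. The change between 24 h and 48 h in FBP minus Pgk-1 was -0.71 in resistant and -1.52 in susceptible plants, with a mean of -1.12. For PRK minus Pgk-1 it was -0.32 and -1.05 (mean -0.69), and for Pgk-1 minus GAPN 0.46 and 1.61 (mean 1.04). In these 3 pairs the susceptible value was larger in size, and the difference between the lines was not tested. PRK minus FBP was 0.39 in resistant and 0.46 in susceptible plants (mean 0.43), FBP minus GAPN -0.25 and 0.09 (mean -0.08), and PRK minus GAPN 0.14 and 0.56 (mean 0.35). By exact two-sided permutation of the 24 h and 48 h arrays within lines, which can give no p below 0.005, the p-values of the means adjusted over the 6 pairs were 0.01 for the FBP and GAPN pairs with Pgk-1 and for PRK minus FBP, 0.015 for PRK minus Pgk-1, 0.036 for PRK minus GAPN and 0.645 for FBP minus GAPN. The PRK minus GAPN call was lost without any one of 8 of the 12 arrays, the exceptions being resistant 24 h replicate 1, resistant 48 h replicate 3 and susceptible 24 h replicates 1 and 3. The value was 0.26 to 0.41 over the 12 arrays left out in turn.

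**Figure D3:**
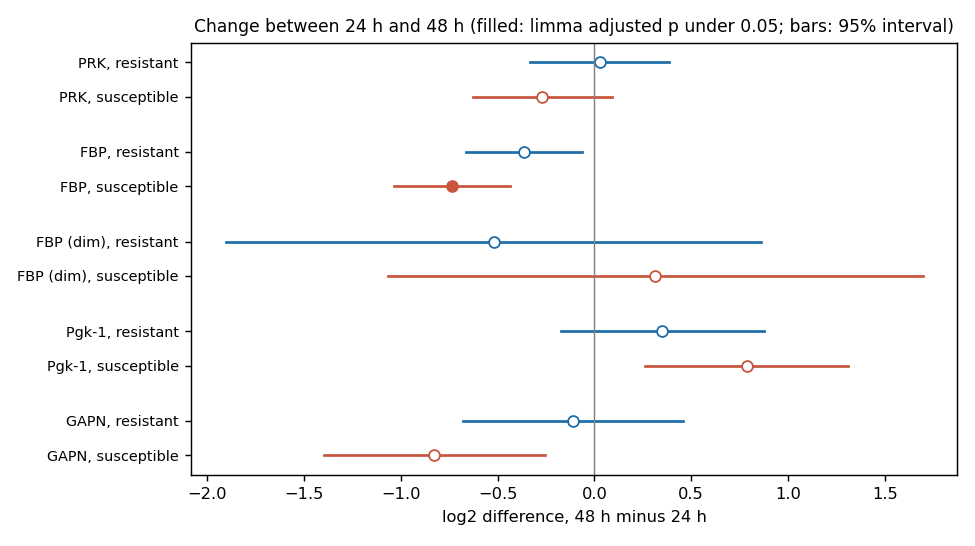
Log2 difference between 48 h and 24 h (48 h minus 24 h, on log2(signal + 16)) of each member probe set in the resistant (blue) and susceptible (red) line, with 95% intervals from limma; the filled circle has an adjusted p under 0.05. FBP in susceptible plants, at -0.73, is the only filled circle, and Pgk-1 lies at 0.35 and 0.79, right of 0 in both lines.

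At 0 h the lines differed little in these genes: 0 of 5 members were called, as were 0.0216% of all tested probe sets. Resistant minus susceptible was 0.21 for PRK (95% interval -0.15 to 0.57), 0.01 for FBP (-0.29 to 0.31), 0.17 for Pgk-1 (-0.36 to 0.69) and -0.03 for GAPN (-0.60 to 0.54). The resistant PRK arrays were all above the susceptible ones at 0 h, a separation not counted over all tested probe sets. The dim FBP probe set differed by -0.78 (-2.16 to 0.60).

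At 24 h again 0 of 5 members were called, where 2.38% of all tested probe sets were called higher and 2.77% lower in resistant plants. PRK differed by 0.52 ± 0.17 (SE, limma adjusted p = 0.0942), Pgk-1 by 0.65 ± 0.25 (0.172), GAPN by 0.46 ± 0.27 (0.464), FBP by 0.14 ± 0.14 (0.738) and the dim FBP probe set by 0.49 ± 0.66 (0.82). These values were smaller with the susceptible replicate 2 array than without it. On that array the 4 bright probe sets averaged 0.637 above their group means, against -0.334 and -0.303 on the other arrays of that group. Without it 3 of 5 members were called higher in resistant plants: Pgk-1 by 1.08 (adjusted p = 0.000462), GAPN by 0.86 (0.0215) and PRK by 0.75 (0.00333). FBP was then at 0.35 (0.104) and the dim FBP probe set at 0.95 (0.584), not called. PRK was also called on the hybridisation control scale, at 0.68 (0.0407).

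At 48 h PRK, FBP and GAPN were higher in resistant than in susceptible plants, 3 of 5 members, where 6.69% of all tested probe sets were called higher and 5.39% lower. GAPN averaged 1230 ± 351 in resistant and 530 ± 118 in susceptible plants (SD, n = 3 each), a log2 difference of 1.17 ± 0.27 (SE, limma adjusted p = 0.00617). PRK averaged 18955 ± 2836 in resistant and 10777 ± 1969 in susceptible plants (SD, n = 3 each), a difference of 0.82 ± 0.17 (limma adjusted p = 0.00272). FBP averaged 2868 ± 435 in resistant and 2001 ± 198 in susceptible plants (SD, n = 3 each), a difference of 0.51 ± 0.14 (limma adjusted p = 0.0226). For all 3 genes every resistant array lay above every susceptible array. The share of all tested probe sets that separated in this way was not counted.

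Pgk-1 at 48 h averaged 15463 ± 2562 in resistant and 13273 ± 2062 in susceptible plants (SD, n = 3 each), and its difference of 0.22 was not called (95% interval -0.31 to 0.74, limma adjusted p = 0.697). The dim FBP probe set differed by -0.34 (0.84). The FBP call was lost without resistant 48 h replicate 3 (0.39, adjusted p = 0.135) or susceptible 48 h replicate 3 (0.43, 0.129). It was also lost, at an unchanged 0.51, when limma was fitted with no variance trend (0.0831) or no moderation of the variances (0.065). On the hybridisation control scale GAPN alone was called, at 0.88, while PRK was at 0.52 (0.0918), FBP at 0.21 (0.58) and Pgk-1 at -0.08. That was the lowest GAPN value over 18 alternatives, and the largest limma adjusted p of GAPN over them was 0.0498, close to the cut.

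**Figure D4:**
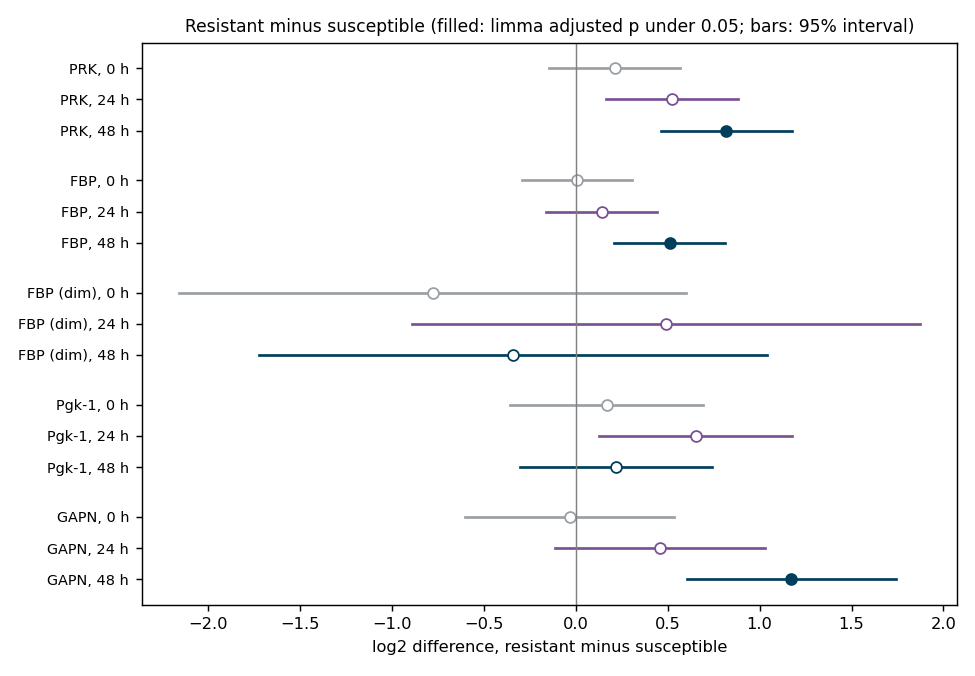
Log2 difference between the lines (resistant minus susceptible, on log2(signal + 16)) of each member probe set at 0 h, 24 h and 48 h, with 95% intervals from limma; filled circles have an adjusted p under 0.05. The filled circles are PRK, FBP and GAPN at 48 h, at 0.82, 0.51 and 1.17.

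Whether the change from 0 h itself differed between the lines was tested as an interaction, and 0 of 5 members were called at 24 h or at 48 h, where 1.6% and 5.05% of all tested probe sets were called in either direction. At 48 h the resistant change minus the susceptible change was 1.21 ± 0.38 for GAPN (SE, limma adjusted p = 0.0801), 0.61 ± 0.24 for PRK (0.179), 0.50 ± 0.20 for FBP (0.185) and 0.05 ± 0.35 for Pgk-1 (0.967). The GAPN value was called without resistant 48 h replicate 1 (1.45, adjusted p = 0.0258). At 24 h the values were 0.31 for PRK, 0.13 for FBP, 0.48 for Pgk-1 and 0.49 for GAPN, with limma adjusted p between 0.655 and 0.864, and 1.27 for the dim FBP probe set (0.656). Without the susceptible 24 h replicate 2 array, Pgk-1 was called there at 0.91 (0.0404), while GAPN at 0.90 (0.138), PRK at 0.54 (0.2), FBP at 0.34 (0.355) and the dim FBP probe set at 1.73 (0.448) were not.

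Across the 18 arrays the 4 bright probe sets followed each other closely. Pearson correlations of log2(signal + 16) between them ran from 0.892 (FBP with Pgk-1) to 0.989 (PRK with GAPN), as a description of arrays that share the same 6 groups. After the group means were taken out, the correlations were still 0.765 (FBP with Pgk-1) to 0.907 (PRK with GAPN). The dim FBP probe set correlated with the others at 0.206 to 0.247 over all arrays. Within groups the susceptible 24 h replicate 2 array had the largest deviation of the bright probe set of each of the 4 genes.

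**Figure D5:**
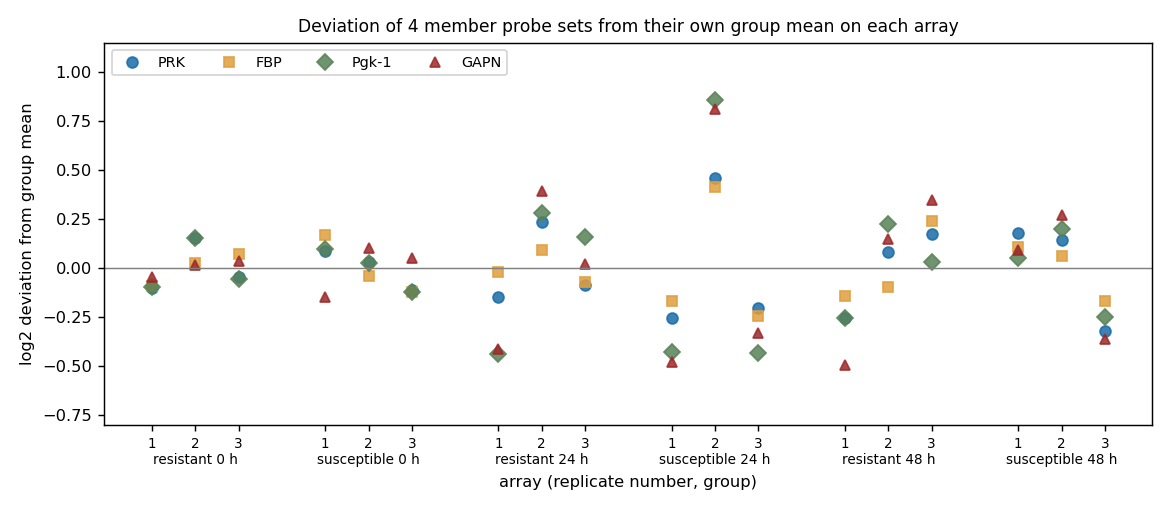
Deviation of the 4 bright member probe sets from their own group mean (log2) on each of the 18 arrays, with 1 marker per gene and arrays ordered by group and replicate. The 4 genes deviate the same way on most arrays, and on the susceptible 24 h replicate 2 array all 4 lie above the group mean, on average by 0.637.

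The genes most alike in pattern were sought among 84 other named genes, by Pearson correlation over the 18 arrays. For PRK they were CAT1, a catalase of photorespiration (0.983), OEE2 or PsbP, an oxygen-evolving protein of photosystem II (0.981), and petC, the Rieske iron-sulfur protein (0.974). For FBP they were lgul, a glyoxalase (0.994), TSA (0.991) and CAT1 (0.988). For GAPN they were Trx-M, an m-type thioredoxin (0.985), CAT1 (0.985) and PsbP (0.984). Pgk-1 was most like a different set, the peroxiredoxin gene Prx1 (0.967), the methyltransferase gene PEAMT1 (0.958) and the ribosomal protein gene CL9 or RPL9 (0.946).

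Averaged over their probe sets, rbcL and the group of PsbP, PsbO and petC fell less than the members. Single probe sets of rbcL and PsbP fell as far as some members, as did CAT1 and Trx-M, described below. For the Rubisco large subunit gene rbcL, 20 of 28 probe sets were tested, and 7 and 9 were called lower in resistant plants at 24 h and 48 h and 11 and 10 in susceptible plants, with 0 called higher. Their median differences were -0.59 and -0.80 in resistant and -0.90 and -0.88 in susceptible plants. The rbcL probe set called most often and with the largest mean change had differences of -2.69 and -2.74 in resistant and -3.88 and -3.30 in susceptible plants. These were beyond the values of PRK, the bright FBP probe set and Pgk-1 in each comparison. In susceptible plants at 24 h the rbcL probe set was also beyond GAPN, which was at -3.19. Of 5 photosystem and electron transport probe sets (PsbP, PsbO and petC) 4 were called lower in each comparison, with medians of -0.90 and -0.97 in resistant and -0.89 and -1.22 in susceptible plants. The exception was a dim petC probe set, called higher in resistant plants at 24 h and 48 h (2.07 and 1.75). The PsbP probe set that fell most had differences of -1.39 and -1.75 in resistant and -1.82 and -2.55 in susceptible plants, beside -1.73 for PRK in resistant plants at 48 h and -2.34 for PRK and -1.87 for Pgk-1 in susceptible plants at 48 h.

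In the exact two-sided permutation tests over infested and 0 h arrays described above, every member gene fell more than the mean of each of these lists. The members and the lists were chosen with earlier results of these data known. The p-values below therefore describe these arrays and are no independent support for a larger fall of the members. GAPN minus the rbcL list changed by -2.32 and GAPN minus the photosystem list by -2.53 on the log2 scale (adjusted p = 0.000283 for each). The values were -1.27 (0.000744) and -1.48 (0.000283) for Pgk-1, -1.11 and -1.32 (0.000283 each) for PRK, and -0.67 (0.0195) and -0.88 (0.00154) for FBP with both probe sets averaged. The FBP call against rbcL was lost without resistant 0 h replicate 1 (-0.57) or susceptible 0 h replicate 1 (-0.52). On bright probe sets alone, which left 4 of 20 for rbcL and 4 of 5 for the photosystem list, they were -1.83 and -1.997 for GAPN, -1.33 and -1.50 for FBP, -0.77 and -0.95 for Pgk-1 and -0.62 and -0.79 for PRK. The largest adjusted p of these 8 values was 0.00298, for Pgk-1 against the photosystem list. These are unequal changes within arrays and say nothing of the levels of one gene against another.

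The 3 probe sets of CAT1 and of Trx-M, an m-type thioredoxin, moved with the members. In resistant plants 3 of 3 were called lower at 24 h and at 48 h, and in susceptible plants 2 and 3. The differences of Trx-M were -1.85 and -1.86 in resistant and -1.79 and -2.37 in susceptible plants. Those of the brighter CAT1 probe set were -1.86 and -1.84 in resistant and -1.91 and -2.43 in susceptible plants. Both fell slightly further than PRK, except in susceptible plants at 24 h, where PRK was at -2.07. Both fell less than the bright FBP probe set and GAPN in each comparison. Neither was set against the members by a test. At 48 h Trx-M and the brighter CAT1 probe set were higher in resistant than in susceptible plants, by 0.58 (limma adjusted p = 0.0243) and 0.69 (0.00135), as were 4 of 5 photosystem probe sets and 0 of 20 rbcL probe sets. In the cytosolic glycolysis list the only annotated probe set was a dim one for phosphofructokinase (PFK), with differences from 0 h of -0.26 and -0.10 in resistant and -0.64 and -0.59 in susceptible plants, none called (limma adjusted p between 0.395 and 0.91). The small subunit of Rubisco and Rubisco activase had no annotated probe set here.

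Leaf markers were present on every array, and their summed signal fell with infestation. The leaf markers on the array were rbcL, PsbP, PsbO, petC, CAT1 and PRK, itself a member, and 20 of their 28 tested probe sets read rbcL. Of these 28, 14 and 16 were called lower at 24 h and 48 h in resistant plants and 17 and 17 in susceptible plants. All of them were counted above under their own genes, so these counts are no separate evidence on leaf tissue. The shares of all tested probe sets called lower were 14.5% to 19.1%. In resistant plants 1 leaf probe set was called higher at each time, and in susceptible plants 0. The summed signal of the leaf markers over 36 probe sets, PRK among them, was 256879 to 303398 at 24 h and 251552 to 304918 at 48 h in resistant plants, against 507612 to 599632 at 0 h. In susceptible plants it was 221575 to 267203 at 24 h and 188710 to 217797 at 48 h, against 444142 to 498492 at 0 h. The summed signal of 9 grain storage probe sets moved the other way in susceptible plants at 48 h. It was 2274 to 5185 there, against 105.5 to 373.8 at 0 h, and 433.1 to 1110 in resistant plants at 48 h. Most of the sum in susceptible plants at 48 h came from 2 probe sets of 1 gene, LMGli2482, with mean signals of 1562.5 and 1925. WSZ2a was also called higher in that group than at 0 h, by 2.22 on the log2 scale. LMW-GS probe sets, at 0.81 and -1.19, were not called there, so the grain markers did not rise as a class. Of the 7 tested among these 9 grain probe sets, 0 and 2 were called higher in resistant and 0 and 3 in susceptible plants at 24 h and 48 h. The part of these markers in the members' falls was not tested. The epidermal markers, 2 LTP3 probe sets, summed to 9473 to 14529 over the infested arrays and 9690 to 11551 over the 0 h arrays. Phloem and root markers had no annotated probe set.

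The elongation factor gene TEF1, taken as a steady gene, had 1 of 2 probe sets called higher at 24 h in each line, by 0.23 in resistant and 0.27 in susceptible plants, and 0 of 2 called at 48 h. The ratio of 3' to 5' signal of the sucrose synthase control probe sets, which rises as RNA degrades, averaged 19.4 at 24 h and 20.1 at 48 h in resistant plants, against 15.8 at 0 h, and 16.01 and 14.4 in susceptible plants, against 15.4. The same ratio for glucose-6-phosphate dehydrogenase averaged 3.58 at 24 h and 3.16 at 48 h in resistant plants, against 2.98 at 0 h, and 3.02 and 2.77 in susceptible plants, against 2.52. Its means were thus higher in all 4 infested groups, and in susceptible plants at 24 h, with 2.92 to 3.22 against 2.19 to 2.71 at 0 h, the arrays did not overlap. The part of RNA quality in the members' falls was not tested.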

How the data were processed

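Leaf RNA of 18 samples was hybridised to 1 Affymetrix wheat array each. The intensities deposited by the authors are linear MAS5 signals, 1 per probe set, where MAS5 is named in the submitters' processing notes with no version. No source used here gives detection calls or scan dates. Of 61290 probe sets, 111 controls were left out. An offset of 16 was added before log2 was taken and no normalization was added, so the fold changes of dim probe sets are understated. A probe set entered the tests when it exceeded the 40th percentile of 3 or more arrays, which kept 46251 and dropped 14928. Group means of all 6 groups were estimated together by limma 3.58.1 under R 4.3.3 (lmFit, eBayes with a variance trend), and 11 contrasts of them were tested, each adjusted by Benjamini-Hochberg over all tested probe sets. The fit was tested on simulated data. Exact permutation tests were run in Python 3.11.15 with numpy 2.4.6. Precision is limited by having 3 arrays a group.

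Symbols came from the platform annotation and the IWGSC CS RefSeq v2.1 gene table, which matched 770 of 771 annotated genes; no coordinates are given because the sources name no build. All members were named. Genes alike in pattern were the 3 named genes with the highest Pearson correlation, and list genes were named by the number of comparisons against 0 h in which they were called, then by mean change. The members and lists were chosen with earlier results of these data known. The tests on bright probe sets and the 6 tests between 24 h and 48 h were added after the data were seen. Alternatives tried were quantile normalization, median centring, the hybridisation control scale, offsets of 1 and 64, other filters, other variance settings, array weights, the replicate number as a block, the compared arrays only, and each array left out.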

Additional observations from a re-analysis of the deposited data

Results flagged for a closer look

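Some control probe sets, which the comparisons above left out, were higher on all infested arrays than on all 0 h arrays of the susceptible line. No test was run, the values are ratios of mean signals, and control probe sets with smaller ratios were not flagged. For glucose-6-phosphate dehydrogenase, the entry enzyme of the oxidative pentose phosphate pathway, the 3' probe set was at 3.35 times its 0 h mean at 24 h and 4.72 times at 48 h. The middle probe set was at 2.50 and 3.58 times, and the 5' probe set at 2.76 and 4.25 times. The mean signal of the 3' probe set was 4115 at 24 h and 5796 at 48 h against 1229 at 0 h in susceptible plants, and 1667 and 1863 against 1252 in resistant plants. In resistant plants too its infested arrays, at 1529 to 2222, lay above its 0 h arrays, at 1241 to 1258. The middle probe set of sucrose synthase was at 2.01 times its 0 h mean at 24 h and 2.04 times at 48 h in susceptible plants. In resistant plants its mean was 4025 at 24 h and 3246 at 48 h against 2509 at 0 h.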

How the results depend on the processing

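Over 18 alternatives each, PRK, the bright FBP probe set, Pgk-1 and GAPN stayed called lower than 0 h in all 4 comparisons; PRK in resistant plants at 24 h ran from -1.87 to -1.12 and GAPN in susceptible plants at 48 h from -4.16 to -3.30. Leaving out single arrays gave 4 members called in each of these, 0 for resistant 48 h minus 24 h and for the lines at 0 h, 1 to 2 for susceptible 48 h minus 24 h, 0 to 3 and 2 to 3 for the lines at 24 h and 48 h, and 0 to 1 for each interaction. For susceptible 48 h minus 24 h the count was 2 with quantile normalization, the offset of 64, the 60th percentile filter or array weights. For the lines at 24 h it was 1 on the hybridisation control scale and 2 with array weights, and at 48 h it was 1 on the hybridisation control scale and 2 with no variance trend or no moderation. For the interaction at 48 h it was 1 with array weights or the compared arrays only, the member being GAPN. The dim FBP probe set at 48 h in resistant plants turned to 0.0052 with quantile normalization, 0.0097 with median centring and 0.14 on the hybridisation control scale. FBP between the lines at 0 h turned to -0.066 and -0.025 with the first 2 of these. On the hybridisation control scale PRK turned to -0.15 and 0.016 between 24 h and 48 h in resistant and susceptible plants, and Pgk-1 to -0.085 between the lines at 48 h and -0.25 in its interaction. In the tests between genes, FBP minus rbcL was -0.63 (adjusted p = 0.0581) with an offset of 1, PRK minus FBP -0.52 (0.00628) and FBP minus Pgk-1 0.68 (0.0324) with an offset of 64, and on bright probe sets PRK minus FBP was 0.71 and FBP minus Pgk-1 -0.55. The cause of these shifts was not tested. Leaving out arrays gave -0.55 to -0.36 for PRK minus FBP, 0.48 to 0.73 for FBP minus Pgk-1, -0.79 to -0.52 for FBP minus rbcL, and between 24 h and 48 h 0.26 to 0.41 for PRK minus GAPN and -0.18 to 0.017 for FBP minus GAPN. Small differences turned sign in the same way: the dim FBP probe set ran from -0.12 to 1.19 and -0.72 to 0.37 at 24 h and 48 h in resistant plants, -1.39 to 0.057 and -0.059 to 0.77 between 24 h and 48 h in resistant and susceptible plants, -0.85 to 0.24 between the lines at 48 h and -0.073 to 1.02 in the interaction there. The bright FBP probe set ran from -0.055 to 0.090 and GAPN from -0.11 to 0.017 between the lines at 0 h, PRK from -0.060 to 0.15 and GAPN from -0.32 to 0.14 for resistant 48 h minus 24 h, and Pgk-1 from -0.076 to 0.18 in the interaction at 48 h. Same-numbered arrays did not deviate together (correlations of -0.040 to 0.062, 0 of 15 pairs per number over 0.1), so the numbers were not used to pair samples. With the replicate number as a block, the counts were 3 for susceptible 48 h minus 24 h, 1 for the lines at 24 h and 1 for the interaction at 48 h, PRK minus FBP was -0.45 (adjusted p = 0.0432), and PRK minus Pgk-1 between 24 h and 48 h was -0.69 (0.075). Low signal limits what the dim FBP probe set can show.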

Other observations

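Of 7 probe sets for starch and fructan enzymes, 5 were tested, with differences from 0 h that were not set against those of PRK, FBP, Pgk-1 and GAPN by a test. AGP-S, the small subunit of ADP-glucose pyrophosphorylase, which makes the precursor of starch, was lower than at 0 h, with log2 differences of -0.34 and -0.45 at 24 h and 48 h in resistant plants and -0.57 and -0.80 in susceptible plants. 1-FEH, a fructan exohydrolase, was higher by 0.38 and 0.57 in resistant plants, and by 0.89 and 1.06 in susceptible plants. All 8 values were called by limma (largest adjusted p = 0.00932). Resistant minus susceptible for 1-FEH was -0.52 at 24 h (adjusted p = 0.00486) and -0.50 at 48 h (0.00343), but the difference between the lines in its change from 0 h was not called (-0.51 and -0.49, adjusted p = 0.113 and 0.0696). The brightest of 3 tested probe sets for 6-FEH, another fructan exohydrolase, was called lower in each comparison, at -1.38 and -1.50 in resistant plants and -1.46 and -1.56 in susceptible plants. It was itself dim, with a mean signal of 90.3 over all arrays. The other tested 6-FEH probe sets were called lower in 2 and 1 of these comparisons.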
